A study of Mus musculus with 18 samples.

Results

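The genes described here are 10 neighbours on mouse chromosome 9: the transcriptional co-activator gene Yap1, the inhibitor of apoptosis genes Birc2 and Birc3, the metalloproteinase genes Mmp3, Mmp8, Mmp10, Mmp12 and Mmp13, and the genes Tmem123 and Dcun1d5. They were picked by name from the stretch of GRCm39 that runs from Dync2h1 to Maml2, with their levels over the median of the 18 tumors already known, so those levels are given as a description, with no test. The count table held 57126 genes, of which 71 lay in this interval. Of these, 25 were protein-coding, and 21 of the 25 had a mean of at least 1 CPM (counts scaled to a common library size), the 10 members among them. The members lie between chr9:7184509-7211322 (Dcun1d5) and chr9:7932000-8004661 (Yap1), less than 1 Mb of the interval.

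YAP, the product of Yap1, binds TEAD transcription factors and switches on genes for growth, adhesion and matrix unless the kinases of the Hippo pathway hold it in the cytoplasm. The products of Birc2 and Birc3, cIAP1 and cIAP2, are ubiquitin ligases that sit on TRAF2 at tumor necrosis factor receptors, where they restrain caspase-8 and the non-canonical NF-kB kinase. The Mmp genes of the cluster encode secreted enzymes that cut collagen, elastin and other matrix proteins. In mammary tumors they are made by tumor cells, fibroblasts and infiltrating myeloid cells. The human counterparts of Yap1, Birc2 and the Mmp genes also lie side by side, in a segment known for amplification in several carcinomas. DNA copy number was not analysed here.

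RNA was sequenced from 18 mammary tumors of female mice, the F1 offspring of BALB/c and C57BL6/J parents, in which an adenovirus with Cre recombinase was injected into the mammary ducts. The MaP R172H/- group (7 tumors from 7 mice) and the MaP R245W/- group (5 tumors from 5 mice) expressed a mutant p53 from 1 Trp53 allele and had lost the other in the recombined ductal cells, and the MaP -/- group (6 tumors from 4 mice) had lost both alleles. Cre acted in ductal epithelium, so stromal and immune cells of all 3 groups kept wild-type Trp53. A Rosa26 LSL-TdTomato/+ reporter was carried by 3 MaP R172H/- and 3 MaP R245W/- tumors. Mice JM663 and JM833 gave 2 MaP -/- tumors each, named T1 and T2. Tumors JM779-T1 and JM836-T1 are named as their labels name them, but the study's own list of tumors marks T2 of both mice as sequenced, so which tumor of these mice the values belong to is uncertain.

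Total counts per tumor were between 23113578 and 37365062, and the lowest count of any member in any tumor was 8. Trp53, the recombined gene, was between 9.41 and 21.6 CPM (median 12.2) in MaP -/- tumors, between 10.8 and 50.1 (median 45.7) in MaP R172H/- tumors and between 9.08 and 58.9 (median 27.1) in MaP R245W/- tumors, so all 3 groups overlapped. MaP R172H/- libraries were read on a HiSeq instrument and all others on a NovaSeq instrument, so genotype and instrument cannot be told apart in any comparison with that group. Nor can molecular subtype, because the study lists MaP R172H/- tumors as luminal B or HER2-enriched and all others as triple-negative. By histology it lists JM1126 as a nonmetaplastic sarcoma and JM663-T2 as a metaplastic sarcomatoid carcinoma. Both tumors in which all 5 Mmp genes of the block were raised, JM663-T2 and JM1126, were read on NovaSeq. In a bulk tumor, fewer cells of a type and less RNA per cell cannot be told apart.

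All 10 members had a RefSeq promoter, and the 250 bases before each start were placed on GRCm39 by exact match. Those of 5 members are shown in lower case, 3 Mmp genes that were high in JM663-T2 and JM1126 and 2 members that were high in JM663-T2 alone. Capitals mark 3 motifs searched on both strands: the AP-1 element TGANTCA, the TATA box TATAAA and the TEAD element GGAATG. For Yap1 the 64 bases that GENCODE M39 counts as transcribed are left out.
Mmp13 (chr9:7272264-7272513, strand +): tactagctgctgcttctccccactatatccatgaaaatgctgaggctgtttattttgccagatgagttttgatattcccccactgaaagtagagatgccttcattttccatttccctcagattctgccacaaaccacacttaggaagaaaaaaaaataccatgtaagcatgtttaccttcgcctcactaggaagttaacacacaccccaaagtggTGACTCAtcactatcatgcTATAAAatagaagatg
Mmp3 (chr9:7445572-7445821, strand +): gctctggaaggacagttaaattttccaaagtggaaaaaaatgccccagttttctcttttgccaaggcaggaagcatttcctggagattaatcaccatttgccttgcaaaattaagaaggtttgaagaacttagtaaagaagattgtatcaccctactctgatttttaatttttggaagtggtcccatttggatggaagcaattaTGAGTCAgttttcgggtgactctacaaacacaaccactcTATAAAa
Mmp10 (chr9:7502093-7502342, strand +): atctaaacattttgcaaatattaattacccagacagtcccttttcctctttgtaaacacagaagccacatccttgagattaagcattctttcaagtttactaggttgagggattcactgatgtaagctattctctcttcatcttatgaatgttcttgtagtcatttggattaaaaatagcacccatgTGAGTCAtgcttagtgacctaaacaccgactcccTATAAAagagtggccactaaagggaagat
Yap1 (chr9:8004662-8004847, strand -): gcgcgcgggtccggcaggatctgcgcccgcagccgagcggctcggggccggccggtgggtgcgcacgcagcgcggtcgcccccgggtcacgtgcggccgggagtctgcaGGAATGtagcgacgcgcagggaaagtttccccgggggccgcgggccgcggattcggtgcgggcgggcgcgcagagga
Dcun1d5 (chr9:7184255-7184504, strand +): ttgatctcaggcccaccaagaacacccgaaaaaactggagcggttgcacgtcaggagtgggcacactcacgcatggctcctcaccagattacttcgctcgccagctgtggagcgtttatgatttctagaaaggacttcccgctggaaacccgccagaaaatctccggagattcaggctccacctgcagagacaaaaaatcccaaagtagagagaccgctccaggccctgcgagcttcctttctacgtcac

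Mmp13, Mmp3 and Mmp10 each held 1 AP-1 element and, nearer to the start, 1 TATA box. The AP-1 element began 35 bases before the start in Mmp13, 46 in Mmp3 and 63 in Mmp10. Neither motif matched in the other 7 members, Mmp8 and Mmp12 included. Yap1 held 1 TEAD element and was the only member of the 10 with a match. Among 32851 mouse promoters of the same length, 6.75% held an AP-1 element, 12.4% a TATA box, 12.6% a TEAD element and 1.21% both an AP-1 element and a TATA box. Base composition differed too, with 76.4% G or C in Yap1, 68.4% in Birc2 and 69.2% in Tmem123 against 37.2% to 44.8% in the 5 Mmp promoters. These matches describe the letters in the window and were not tested against the levels.

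The block rose as a whole in 1 tumor. In JM663-T2, a MaP -/- tumor, all 10 members were at least 2-fold the 18-tumor median, from 8.29-fold (Tmem123) to 224-fold (Mmp10), with a median of 13.1-fold. Of 16393 genes with a median of at least 1 CPM, 6.68% reached 2-fold in JM663-T2. JM663-T2 ranked highest of the 18 tumors for 7 members and second for the other 3. In JM1126, a MaP R245W/- tumor, all 5 Mmp members were raised, from 6.02-fold (Mmp8) to 252-fold (Mmp10), and none of the other 5, which were between 1.07-fold (Yap1) and 1.99-fold (Dcun1d5). In JM1126, 12.0% of the 16393 genes reached 2-fold.

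**Figure D1:**
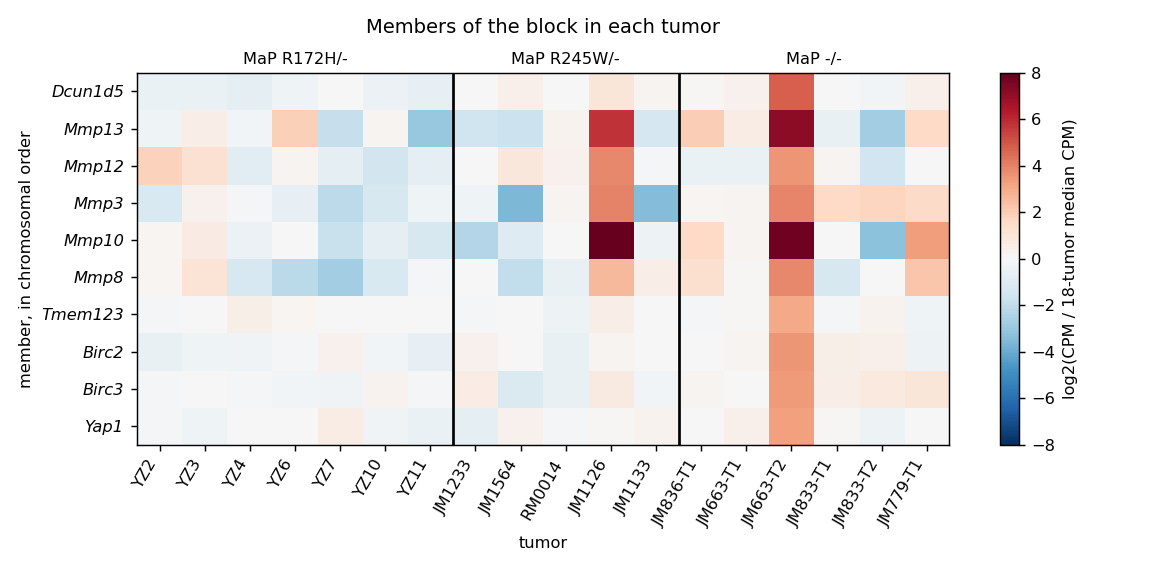
The heat map shows log2 of CPM over the 18-tumor median for the 10 members (rows, in chromosomal order) in the 18 tumors (columns, by genotype). JM663-T2 is high in all 10 rows, and JM1126 is high in the 5 Mmp rows alone.

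Fewer members were raised in each of the other 16 tumors. JM779-T1 had 4 raised members, all Mmp genes, against 8.26% of genes at 2-fold, and JM836-T1 had 3, also Mmp genes. YZ3 had 2, YZ2, YZ6, JM833-T1 and JM833-T2 had 1 each, all Mmp genes, and the remaining 9 tumors had none. Yap1, Birc2, Birc3, Tmem123 and Dcun1d5 were below 2-fold in all 17 tumors other than JM663-T2, the nearest being Dcun1d5 in JM1126. Just above that threshold lay Mmp8 in YZ3, at 2.11-fold.

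JM663-T1, the other tumor of the same mouse, had none of the 10 members raised. Its members were between 0.692-fold (Mmp12) and 1.53-fold (Mmp13) of the 18-tumor median. JM663-T2 over JM663-T1 was 7.34-fold for Yap1, 9.75-fold for Birc2, 10.2-fold for Birc3, 7.63-fold for Tmem123 and 21.5-fold for Dcun1d5. For the Mmp genes it was 12.7-fold for Mmp3, 13.6-fold for Mmp8, 16.8-fold for Mmp12, 92.5-fold for Mmp13 and 196-fold for Mmp10. This is a ratio of 2 libraries, with no replicate of either tumor.

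Yap1 was at least 2-fold the 18-tumor median in JM663-T2 and in no other tumor. In MaP R172H/- tumors its lowest, median and highest levels were 103, 137 and 216 CPM. The MaP R245W/- tumors held 87.2 (JM1233), 138 (RM0014), 156 (JM1126), 180 (JM1133) and 182 CPM (JM1564). The MaP -/- tumors had a lowest level of 111, a median of 152 and a highest of 1443 CPM, the last in JM663-T2 and the next 197 in JM663-T1. The 3 groups overlapped, and without JM663-T2 the MaP -/- mean of 152 CPM ± 30.7 (SD, n = 5) lay within 1 SD of the MaP R172H/- mean of 140 ± 37.5 (SD, n = 7) and the MaP R245W/- mean of 148 ± 38.7 (SD, n = 5). JM663-T2 stood 3.34 above the mean of the other 17 tumors on the log2 scale, where their SD was 0.344.

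Birc2 and Birc3 lie next to Yap1 on its 3′ side. Birc2 had lowest, median and highest levels of 36.9, 47.6 and 73.9 CPM in MaP R172H/- tumors. In MaP R245W/- tumors it was 38.2 (RM0014), 57.6 (JM1133), 60.4 (JM1564), 67.2 (JM1126) and 72.2 CPM (JM1233). In MaP -/- tumors it ran from 44.6 over a median of 72.4 to 669 CPM in JM663-T2, with 81.3 in JM833-T1 as the next. Birc3 was 39.3, 44.2 and 58.3 CPM at the lowest, median and highest in MaP R172H/- tumors. Its MaP R245W/- levels were 21.8 (JM1564), 31.9 (RM0014), 40.9 (JM1133), 71.1 (JM1233) and 80.2 CPM (JM1126). Its MaP -/- levels ran from 49.7 over a median of 75.4 to 509 CPM in JM663-T2, with 92.1 in JM779-T1 as the next. Both genes were raised in the same tumor as Yap1 and in no other, and their sequences are alike enough that the counting could have shared reads between them.

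Tmem123, which encodes a membrane glycoprotein linked to a form of cell death by swelling, varied least. Its other 17 tumors lay between 107 CPM (RM0014) and 203 CPM (JM1126), a 1.91-fold range, and JM663-T2 reached 1153 CPM. Dcun1d5, which helps to attach NEDD8 to cullins, was between 38.7 and 63.2 CPM in MaP R172H/- tumors (median 44.9). It was 64.1 (RM0014), 65.5 (JM1233), 73.4 (JM1133), 84.4 (JM1564) and 127 CPM (JM1126) in MaP R245W/- tumors, so these groups did not overlap, with 63.2 CPM as the highest of the first and 64.1 as the lowest of the second. Of 22481 genes tested, 4.05% were likewise lower in every MaP R172H/- than in every MaP R245W/- tumor, and Dcun1d5 was not called there (log2 fold change -0.82, SE 0.732, edgeR FDR 0.512). In MaP -/- tumors it ran from 55.8 over a median of 73.8 to 1727 CPM in JM663-T2. JM663-T2 was 27.2-fold the median for Dcun1d5, beyond the 8.29-fold to 11.5-fold of Yap1, Birc2, Birc3 and Tmem123.

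The Mmp genes varied more from tumor to tumor than their neighbours. Among the 17 tumors other than JM663-T2, the highest level over the lowest was 41.4-fold for Mmp12, 42.1-fold for Mmp8, 193-fold for Mmp3, 453-fold for Mmp13 and 2506-fold for Mmp10. The same ratio was between 1.91 and 4.23 for the 5 other members. JM1126 was the highest of the 17 for all 5 Mmp genes.

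Mmp13, a collagenase, was 6285 CPM in JM663-T2 and 2430 CPM in JM1126. The other MaP -/- tumors held 6.43 (JM833-T2), 29.5 (JM833-T1), 68.0 (JM663-T1), 132 (JM779-T1) and 177 CPM (JM836-T1). The other MaP R245W/- tumors held 13.7 (JM1564), 14.7 (JM1233), 17.1 (JM1133) and 55.1 CPM (RM0014). MaP R172H/- tumors ran from 5.37 over a median of 38.3 to 166 CPM, the last in YZ6. Outside JM663-T2 and JM1126 no tumor passed 177 CPM.

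Mmp10, a stromelysin, was 1201 CPM in JM663-T2 and 1350 CPM in JM1126. The next tumor was JM779-T1 with 53.3 CPM. The lowest MaP -/- level was 0.539 CPM in JM833-T2, and the other 3 MaP -/- tumors were between 5.26 and 15.9 CPM. MaP R172H/- tumors ran from 1.58 over a median of 3.93 to 8.33 CPM, and the other 4 MaP R245W/- tumors were between 1.04 and 5.44 CPM. Per kilobase of exon, Mmp10 went from a median of 3.11 to 697 CPM in JM663-T2, a level between those of Mmp3 (429 CPM per kilobase) and Mmp13 (2351).

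Mmp3, the other stromelysin of the block, was 772 CPM in JM663-T2 and 815 CPM in JM1126. It was 151 (JM779-T1), 158 (JM833-T1) and 168 CPM (JM833-T2) in 3 further MaP -/- tumors, which is 2.94-fold to 3.26-fold the 18-tumor median of 51.4, and 57.7 and 61.0 in the other 2. The MaP R172H/- tumors ran from 12.2 over a median of 32.7 to 65.5 CPM. In the other MaP R245W/- tumors Mmp3 was 4.23 (JM1564), 4.62 (JM1133), 40.8 (JM1233) and 60.3 CPM (RM0014).

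Mmp12, the macrophage elastase, was 452 CPM in JM663-T2 and 561 CPM in JM1126. Its next levels were 140 CPM in YZ2 and 90.2 in YZ3, both MaP R172H/- tumors, and all others were between 13.6 and 71.2 CPM. Mmp8, the collagenase of neutrophils, was 35.9 CPM in JM663-T2, 14.8 in JM1126 and 11.3 in JM779-T1, with all others between 0.351 and 6.05 CPM. Both were thus high in JM663-T2 and JM1126, and for Mmp8 JM779-T1 came close to JM1126.

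**Figure D2:**
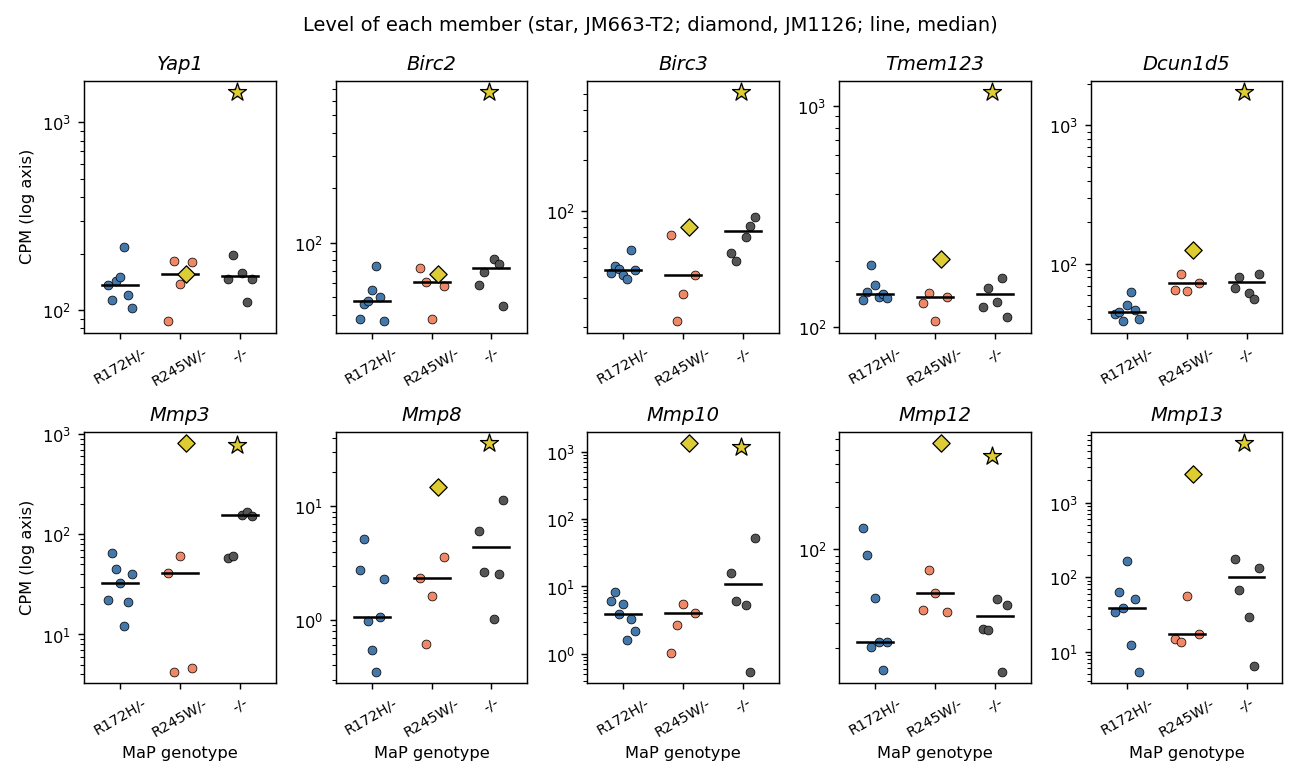
Each panel shows 1 member, with CPM on a log axis for every tumor of the 3 genotypes and a line at the median of each. The star (JM663-T2) is apart from its group in all 10 panels, and the diamond (JM1126) is apart in the 5 Mmp panels.

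The rise in JM663-T2 took in neighbours that were not members. Of the 11 other protein-coding genes of the interval with a mean of at least 1 CPM, 9 were raised in JM663-T2, 4 in JM1126 and none in JM663-T1. YZ4 and YZ7 had 3 each, and no other tumor had more than 2. Of the 16393 genes with a median of at least 1 CPM, 6.68% were raised in JM663-T2 and 12.0% in JM1126. The counts of these 2 tumors include Mmp1a and Mmp1b, whose medians were 0.0154 and 0.0386 CPM. At the Dcun1d5 end, Dync2h1, the heavy chain of the cilium motor dynein-2, was 988 CPM or 10.8-fold the median, and its other 17 tumors stayed at or below 1.93-fold. Pdgfd and Ddi1, outside the interval on that side, were 0.712-fold and 0.564-fold. On the other side of Yap1, Cfap300 was 3.70-fold, Cep126 4.01-fold and Arhgap42 3.97-fold, whereas the cation channel gene Trpc6 was 0.494-fold and the progesterone receptor gene Pgr 1.57-fold. Cfap300 was as high in YZ7, at 3.86-fold. Pgr was highest in YZ4, a MaP R172H/- tumor, at 81.3 CPM against a median of 1.26.

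At the far end of the interval, 5.24 Mb from the Yap1 start, Jrkl was 13.6-fold and Ccdc82 10.2-fold in JM663-T2. Just beyond them the Notch co-activator gene Maml2 was 2.31-fold. Past the interval, Mtmr2, which encodes a lipid phosphatase, was 6.96-fold, the centrosome gene Cep57 7.71-fold and Fam76b 7.56-fold, and Sesn3, the next gene, was 0.753-fold. Cntn5, a neural adhesion gene between Arhgap42 and Jrkl, was 13.6 CPM (412 counts) in JM663-T2 and at or under 4.47-fold of a median of 0.0757 CPM in the other tumors. Neighbouring gene pairs such as Jrkl and Ccdc82 or Mtmr2 and Cep57 lie close or overlap, which could let the counting share reads between them.

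In JM1126 the same stretch was raised in part, in some places shared with JM663-T2 and in others farther on. Dync2h1 was 0.989-fold, and Cfap300 and Cep126 were 0.425-fold and 0.169-fold. Jrkl was 5.55-fold, Ccdc82 4.12-fold, Mtmr2 3.26-fold, Cep57 3.70-fold and Fam76b 3.96-fold, each raised less than in JM663-T2. Farther on, from Endod1 to Med17, 9 expressed protein-coding genes in a row were at 4-fold or more, among them the YAP-binding gene Amotl1 at 12.1-fold. Mmp1a and Mmp1b, interstitial collagenase genes inside the Mmp cluster, were 29.5 and 21.0 CPM in JM1126. They were 0.954 and 11.1 CPM in JM663-T2, 1.03 and 2.36 CPM in JM779-T1, and their 18-tumor medians were 0.0154 and 0.0386 CPM. Mmp1b overlaps Mmp12 on the opposite strand.

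**Figure D3:**
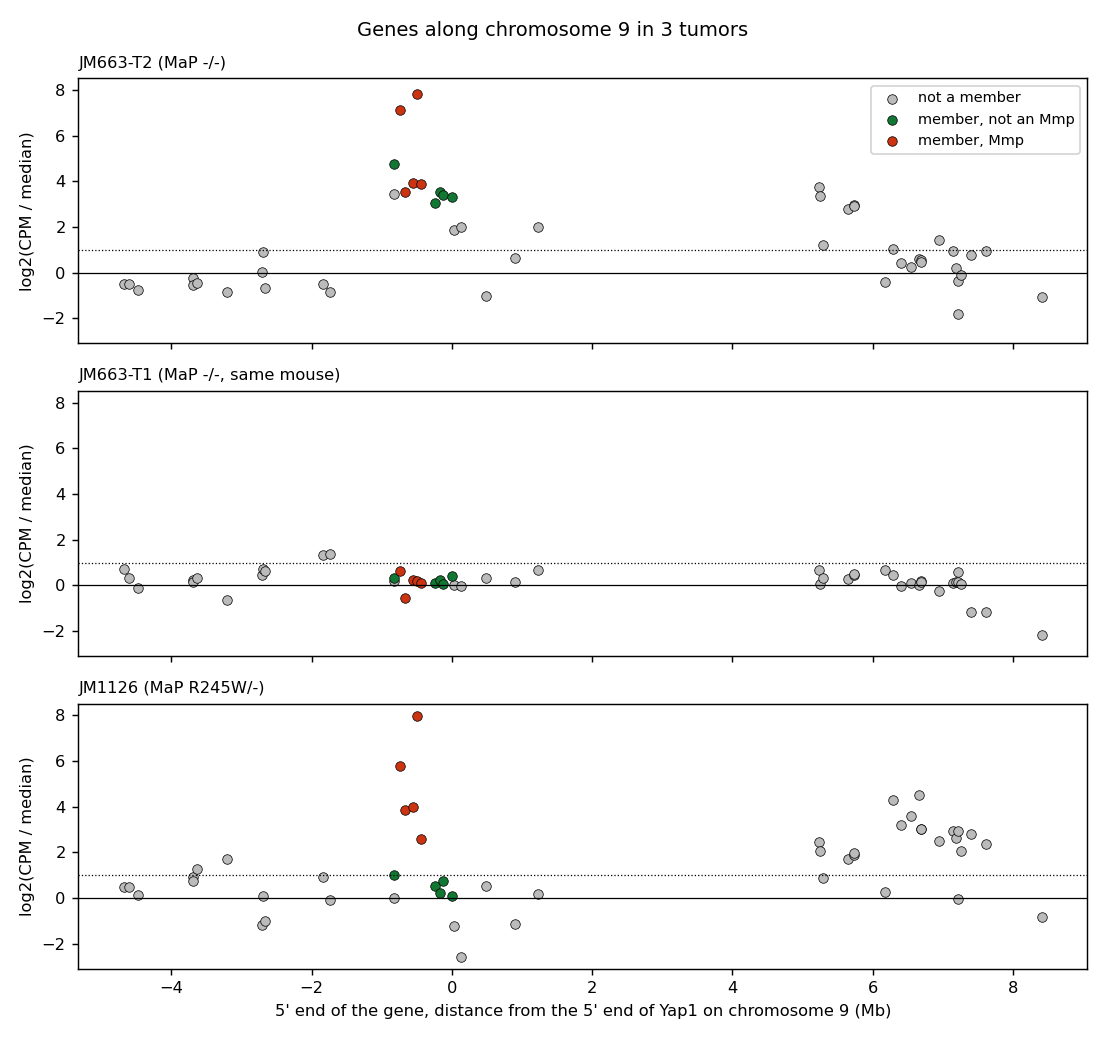
Each point is a protein-coding gene of chromosome 9 with a median of at least 1 CPM, by the distance of its 5′ end from that of Yap1 (Mb) and log2 of its CPM over the 18-tumor median, in 3 tumors. The dotted line marks 2-fold. In JM663-T2 the members, Dync2h1, Cfap300, Cep126, Arhgap42 and the genes near 5.2 to 5.7 Mb are raised, and in JM663-T1 none of them is. In JM1126 the Mmp members and most genes from 5.2 Mb onward are raised. Maml2, Sesn3, 4931406C07Rik and Fat3 are below 2-fold there.

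Runs of neighbouring genes were counted in all tumors for scale. Along all chromosomes, with genes at a median of at least 1 CPM in order, JM663-T2 had 11 neighbours in a row at 4-fold or more, from Dync2h1 to Yap1. All of these but Dync2h1 are members, picked with their levels known. The longest run of any tumor was 12 genes on chromosome 8 in YZ7. In JM1126 the longest was 9, Endod1 to Med17 on chromosome 9, and another of 5 was Mmp13 to Mmp8. The longest run in the other 15 tumors had between 0 and 8 genes.

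The genes outside the interval with a tumor-by-tumor pattern nearest to that of Yap1 were named by the smallest root mean square difference of log2(CPM + 0.5), each gene centred on its median, over 18 tumors and 16393 genes. The nearest was Faim, which encodes a Fas-pathway inhibitory protein and lies farther along chromosome 9 (difference 0.377, 6.74-fold in JM663-T2). It was followed by Mtmr2 (0.488), Cep57 (0.491) and Fam76b (0.517), then by Sdhaf3 on chromosome 6 (0.540, 18.4-fold in JM663-T2). Gbe1, Dhrs1, Samd11, Gm17276 and Gm12852 made up the 10, at 0.621 to 0.652. On the same scale Yap1 itself lay 0.843 from a flat profile. Inside the interval, Tmem123 (0.390), Birc2 (0.405) and Dync2h1 (0.436) were the nearest.

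Genes that YAP and TEAD are known to switch on had their highest summed level in JM1126, not in JM663-T2. That sum over 23 genes was 5666 CPM in JM1126, the highest of 18, 3558 in JM663-T2, the second, and 2469 in JM663-T1, the eighth. Of 22 with a median of at least 1 CPM, 11 reached 2-fold in JM1126, 4 in each of JM663-T2, JM1233 and YZ4, and 1 in JM663-T1. Median folds were 1.81 in JM1126, 1.298 in JM663-T2, 1.295 in JM1233, 1.12 in YZ4 and 1.13 in JM663-T1. Yap1 itself was lowest of the 18 tumors in JM1233, at 87.2 CPM. The ankyrin repeat gene Ankrd1 was 67.6 CPM in JM663-T2 and 139 in JM1126 over a median of 4.60. In JM663-T2, Nt5e (2.45-fold), Axl (2.30-fold) and Ajuba (2.04-fold) were the others at 2-fold, while the matricellular genes Ccn1 and Ccn2 were 1.63-fold and 1.53-fold and Fjx1 was 0.159-fold. In JM1126, with Yap1 at 1.07-fold, Igfbp3 was 4.76-fold, Ccn1 3.03-fold and Ccn2 2.15-fold. The tumor with the highest Yap1 level was thus not the tumor with the highest target level.

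**Figure D4:**
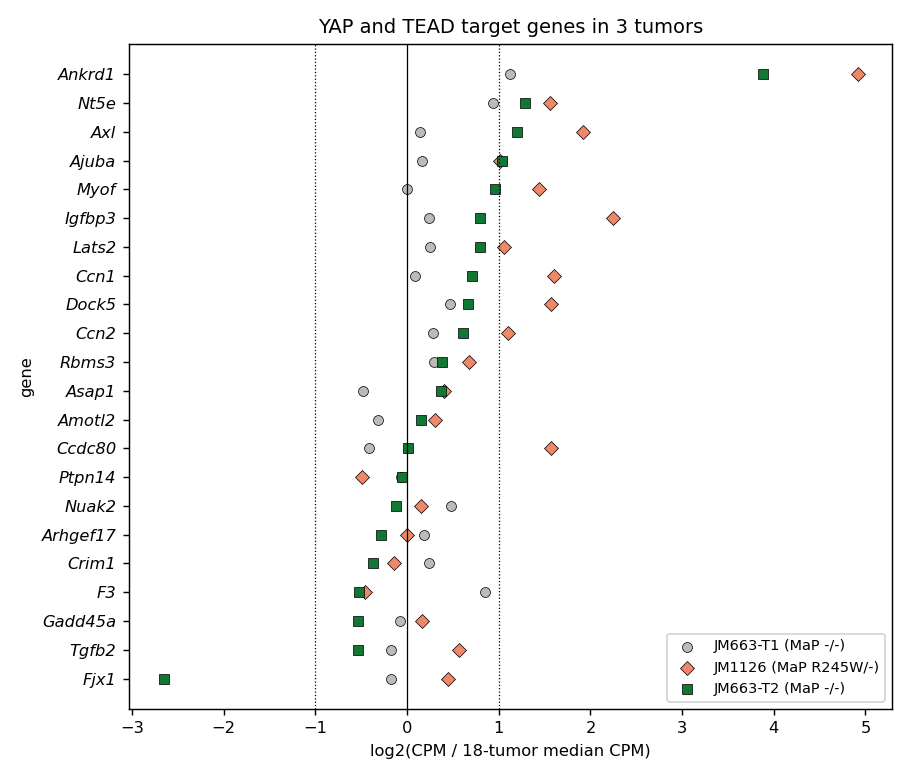
The 22 YAP and TEAD target genes with a median of at least 1 CPM are plotted by log2 of CPM over the 18-tumor median in JM663-T2, JM663-T1 and JM1126, with dotted lines at 2-fold in either direction. Ankrd1 is far to the right in JM663-T2 and JM1126, and most other genes of JM663-T2 lie within 2-fold.

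Most genes of the Hippo pathway outside the interval were within 2-fold of the median in JM663-T2. Of 20, 2 were raised, the TEAD partner gene Vgll3 (5.76-fold) and the cadherin gene Fat4 (5.31-fold), and 2 were at or below 0.5-fold. The kinase gene Lats1 was 0.859-fold, the YAP relative Wwtr1 0.818-fold and Tead1 1.18-fold. None of 20 genes of the inhibitor of apoptosis and NF-kB list was raised in JM663-T2, where Xiap was 1.4-fold, Cflar 1.65-fold, Traf2 0.992-fold and Map3k14 0.964-fold. In JM1126, 1 of the 20 was raised, the NF-kB inhibitor gene Tnfaip3 at 2.999-fold.

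Metalloproteinase genes outside the interval, which the rule did not use, were raised in JM1126 more than in any other tumor. Of 12 with a median of at least 1 CPM, 10 were raised in JM1126, 5 in JM663-T2 and 1 in JM663-T1. JM1233, with no raised member of the block, also had 5, and YZ7, JM833-T1 and JM779-T1 had 4 each. Of 4 inhibitor genes, 3 were raised in JM663-T2 and 2 each in JM1126 and JM1233. The summed level of the whole list of 17 was 5573 CPM in JM1126, 2281 in JM779-T1, 1768 in JM663-T2 and 1744 in JM1233. The gelatinase gene Mmp9 was 3134 CPM in JM1126 and 97.3 in JM663-T2 over a median of 16.5. The inhibitor gene Timp1 was 406 CPM in JM663-T2, its highest, and 264 in JM1126 over a median of 59.6. Among 8 AP-1 subunit genes with a median of at least 1 CPM, 4 were raised in JM1126 and 1 in JM663-T2, Fosl2 at 2.36-fold. The ninth, Fosl1, with a median of 0.894 CPM, was 4.20-fold in JM663-T2 and 4.93-fold in JM1126. Jun was 0.698-fold and Fos 0.785-fold in JM663-T2, against 1.05-fold and 3.30-fold in JM1126.

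Neutrophil markers were high in JM663-T2 and JM1126, and also in JM836-T1 and JM779-T1. Fibroblast markers were high in JM1126 and also in JM1233, where no member was raised. Macrophage markers were highest in JM1233, with JM779-T1 next, and most of them were under 2-fold in JM1126. All 7 neutrophil markers with a median of at least 1 CPM were raised in JM663-T2, and 6 of 7 in JM1126 and in JM836-T1. The list of 11 summed to 2133 CPM in JM663-T2, 491 in JM663-T1 and 418 in JM1126, of which Ltf, a gene that milk-producing epithelium also expresses, made up 1388, 339 and 14.2. Without Ltf the sums were 746, 152 and 404 CPM, with 384 in JM779-T1 and 323 in JM836-T1. Without Ltf they ran from 9.17 to 86.9 CPM in MaP R172H/- tumors, from 17.5 to 404 in MaP R245W/- tumors and from 48.8 to 746 in MaP -/- tumors. S100a8 and S100a9 were at 209 and 291 CPM in JM663-T2, and Ly6g had no count in 3 tumors. All 10 fibroblast markers were raised in JM1126, with a sum of 29870 CPM, the highest of 18, 8 in JM1233, with 13900, and 4 in JM663-T2, with 6778. Fibroblast sums ran from 2476 to 7200 CPM in MaP R172H/- tumors, from 2902 to 29870 in MaP R245W/- tumors and from 3734 to 6908 in MaP -/- tumors. Macrophage markers raised were 9 of 10 in JM1233 (8397 CPM), 5 in JM779-T1 (4243), 4 in JM1126 (3481) and 3 in JM663-T2 (2549). Macrophage sums ran from 1216 to 1584, 1152 to 8397 and 1095 to 4243 CPM in the same order of groups. The part of these cell types in the Mmp levels was not tested.

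Epithelial markers check the labelled tissue. Their sum over 12 genes was 2532 CPM in JM663-T2, 3275 in JM663-T1 and 5134 in JM1126, and it was lowest, at 173, in JM779-T1, where 11 of 12 were at or below 0.5-fold. So were 12 of 12 in JM1233, 10 in JM833-T2 and 9 in YZ7. JM1126, listed as a sarcoma, had none that low and a median of 1.22-fold. In JM663-T2, 5 of 12 were at or below 0.5-fold, among them Epcam (0.436-fold) and Cdh1 (0.430-fold), and Krt14 was 5.24-fold. Epithelial sums ran from 397 to 11710 CPM in MaP R172H/- tumors, from 501 to 6527 in MaP R245W/- tumors and from 173 to 3275 in MaP -/- tumors.

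Between genotypes, 3 members passed the test, all in the comparison of MaP R172H/- with MaP -/- tumors and all with the lower level in the mutant. Of 20954 genes in edgeR's quasi-likelihood test of 7 against 6 tumors, 287 (1.37%) were called at an FDR below 0.05 with an absolute log2 fold change above 2. Mmp3 was lower by a log2 fold change of -2.72 (SE 0.603, edgeR FDR 0.0143), Mmp10 by -5.58 (SE 1.47, FDR 0.0321) and Dcun1d5 by -2.87 (SE 0.827, FDR 0.0474). All 10 members had a negative log2 fold change, with a median of -2.05 against 0.0027 over all genes. Without JM663-T2 the median was -0.59 and 8 of 10 were negative, with Mmp12 at 0.75 and Tmem123 at 0.14. Members were chosen on values that include these tumors, so the count is no independent evidence.

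The edgeR calls of Mmp10 and Dcun1d5 did not survive leaving out any 1 MaP R172H/- tumor, and no member's call survived leaving out JM663-T2. Without it, 0 members were called by edgeR, and Dcun1d5 was at -0.565 (SE 0.163, FDR 0.0647), Mmp10 at -1.89 (SE 0.786, FDR 0.187) and Mmp3 at -1.78 (SE 0.412, FDR 0.0274), the last still past the FDR but under the fold threshold. Yap1 moved from -1.37 (SE 0.570, FDR 0.156) to -0.0909 (SE 0.199, FDR 0.831). Leaving out any 1 of the 7 MaP R172H/- tumors left 1 member called, Mmp3, with edgeR FDRs between 0.0517 and 0.0618 for Mmp10 and between 0.0614 and 0.0850 for Dcun1d5. DESeq2 gave an adjusted p for 3 members and called 2 of them.

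No member was called between MaP R245W/- and MaP -/- tumors by edgeR, with 1 member, Birc3, at an unadjusted p below 0.05. DESeq2 gave an adjusted p for 1 member alone and did not call it, so it could call none of the rest. In that fit 0 of 21452 genes (0.0%) were called, 2527 had an unadjusted p below 0.05, and DESeq2 called 206. The members' log2 fold changes ran from -2.07 (Dcun1d5, SE 0.991) to 0.583 (Mmp12, SE 1.04). Without JM663-T2 and JM1126 they ran from -2.35 (Mmp10, SE 1.07) to 0.648 (Mmp12, SE 0.355), and Yap1 went from -1.31 (SE 0.685) to -0.0661 (SE 0.254).

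Between MaP R172H/- and MaP R245W/- tumors, 526 of 22481 genes (2.34%) and no member were called by edgeR, and none of the 3 members with an adjusted p by DESeq2. This fit held all 18 tumors. Mmp10 was called in a fit of these groups alone (edgeR FDR 0.0442) and with the tumors of a mouse summed (edgeR FDR 0.0410). In the fit of 18 Mmp10 came nearest with a log2 fold change of -5.95 (SE 1.88, edgeR FDR 0.0549), which was 0.425 (SE 0.817, FDR 0.805) without JM663-T2 and JM1126. At an unadjusted p below 0.05 there were 2 members, Mmp3 and Mmp10, and 5827 of all 22481 genes. Without those tumors Dcun1d5 had a log2 fold change of -0.617 (SE 0.164, FDR 0.0342), under the fold threshold. The comparisons share tumors, so their values for the members are not independent of each other.

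**Figure D5:**
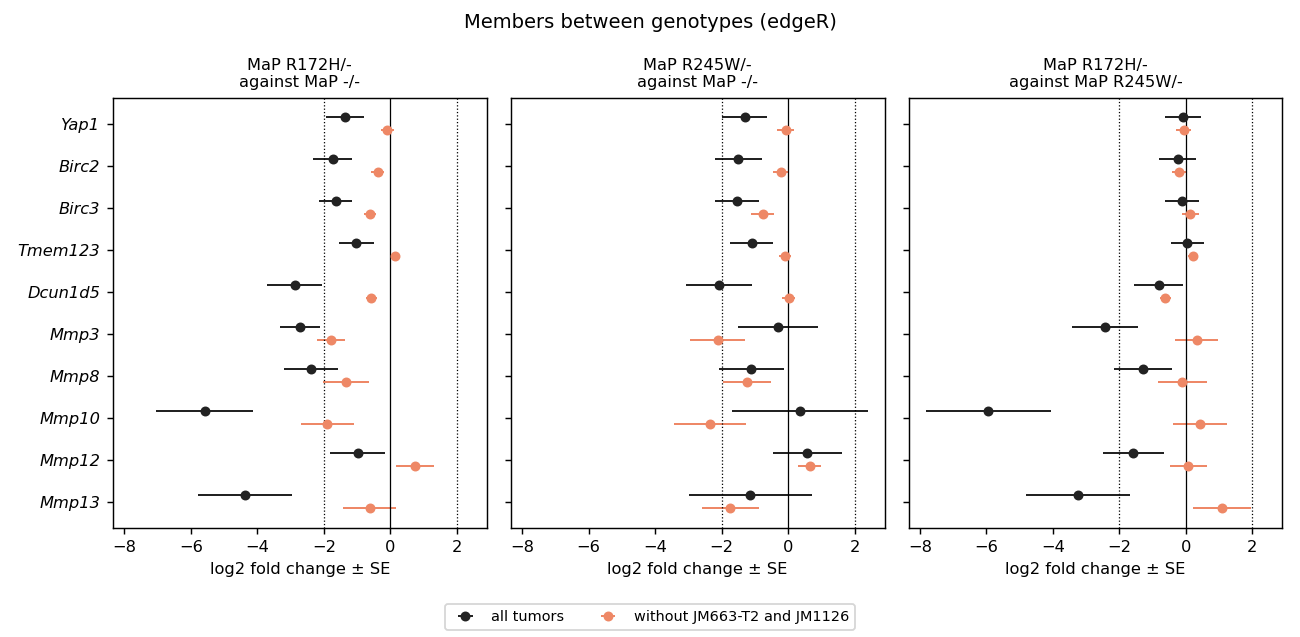
Points show each member's log2 fold change from edgeR in 3 comparisons, with bars of 1 SE, from all tumors (black) and without JM663-T2 and JM1126 (orange), with dotted lines at -2 and 2. Without them, Yap1, Birc2 and Tmem123 lie within 0.384 of 0 in all 3 panels.

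No gene of the 23 YAP and TEAD targets was called in any of the 3 comparisons by edgeR or DESeq2. At an unadjusted p below 0.05 were 4 in MaP R172H/- against MaP -/-, 1 in MaP R245W/- against MaP -/- and 5 in MaP R172H/- against MaP R245W/- tumors, with median log2 fold changes of -0.0285, 0.381 and -0.292. Likewise no Hippo pathway gene of 20 and no gene of 20 in the inhibitor of apoptosis list was called by either tool. Their unadjusted p was below 0.05 for 6, 1 and 5 Hippo genes and for 3, 1 and 2 of the others in the same order. Of 17 metalloproteinase and inhibitor genes outside the interval, DESeq2 called 1 in each comparison and edgeR called Mmp9 alone, in MaP R172H/- against MaP R245W/- tumors (log2 fold change -5.43, SE 1.4, edgeR FDR 0.0210). No AP-1 subunit gene of 9 was called by either tool, with 4, 1 and 1 at an unadjusted p below 0.05. Over all genes tested by edgeR, 5179 of 20954, 2527 of 21452 and 5827 of 22481 were below 0.05 in the same order of comparisons.

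Some marker genes were also called between genotypes. In MaP R172H/- against MaP -/- tumors, edgeR called 5 of 8 tested neutrophil genes lower (S100a8, S100a9, Camp, Ngp and Retnlg). Ltf went the other way, not called (log2 fold change 1.36). Of 10 macrophage and 10 fibroblast genes, 1 each was lower (Mrc1 and Pdgfra). Over all genes 1.37% were called. In MaP R172H/- against MaP R245W/- tumors it called 1 of 10 macrophage genes (Lyz2), 1 of 10 fibroblast genes (Lum) and 5 of 5 tested skeletal muscle genes lower, against 2.34% of all genes. No marker was called in MaP R245W/- against MaP -/- tumors, and no epithelial, T cell, endothelial, adipocyte or cartilage and bone marker in any comparison. The part of the called markers in the members' fold changes was not tested.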

How the data were processed

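Bulk RNA of 18 mouse mammary tumors was measured after ribosomal RNA depletion, with stranded libraries. The authors deposited 1 table of whole-number counts per gene; per the submitters' processing notes and the study's methods, reads were checked with FastQC 0.11.9, aligned with STAR 2.7.10b and quantified with RSEM 1.3.3 against GRCm39 with GENCODE M34. How RSEM's estimates became whole is not given in the sources used here. RSEM shares reads among similar copies, so levels of Birc2 and Birc3, Mmp3 and Mmp10, or Mmp1a and Mmp1b are uncertain where they overlap in sequence. Of 57126 gene identifiers, 56620 matched GENCODE M39, and the other 506 held at most 0.0464% of a tumor's counts.

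Groups came from the genotype labels. CPM used TMM library sizes (edgeR 4.0.16, limma 3.58.1, R 4.3.3). A gene was called raised in a tumor at 2-fold the 18-tumor median. Genotypes were compared with edgeR's quasi-likelihood test after its filterByExpr filter, in fits of 13, 11 and 18 tumors, and called at a Benjamini-Hochberg FDR below 0.05 with an absolute log2 fold change above 2. DESeq2 1.42.0 was an alternative, with its missing adjusted p left missing. Scripts were tested on simulated data. Promoters of 250 bases were RefSeq's, from a table of GRCm38.p6, placed on GRCm39 by exact match. Members and gene lists were chosen with earlier results of these data known. The named neighbours were the 10 genes outside the interval nearest to Yap1. Nothing in the labels says that the 2 tumors of a mouse were independent, and p-values treat them so.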

Additional observations from a re-analysis of the deposited data

Results flagged for a closer look

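In each genotype and for each member, the highest or lowest tumor was compared with its nearest neighbour by Dixon's ratio at the 95% level. The members were chosen with these levels known, so the ratio only picks out values to list, tests nothing and is set against no rate of chance. It picked out 19 of 30. In MaP -/- tumors all 10 members stood apart in JM663-T2: Yap1 at 1443 CPM, Birc2 at 669, Birc3 at 509, Mmp3 at 772, Mmp8 at 35.9, Mmp10 at 1201, Mmp12 at 452, Mmp13 at 6285, Tmem123 at 1153 and Dcun1d5 at 1727 CPM. In MaP R245W/- tumors 5 members stood apart in JM1126, Mmp3 at 815 CPM, Mmp8 at 14.8, Mmp10 at 1350, Mmp12 at 561 and Mmp13 at 2430 CPM. In MaP R172H/- tumors there were 4, in 4 different tumors: Yap1 at 216 CPM in YZ7, Birc3 at 58.3 in YZ10, Mmp13 at 166 in YZ6 and Tmem123 at 192 in YZ4.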

How the results depend on the processing

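The count of tumors whose median member was at least 2-fold the 18-tumor median was 2. It was 1 against the 18-tumor mean and 1 over all expressed protein-coding genes of the interval (JM663-T2 in each), and 1 to 2 with a tumor left out. For MaP R172H/- against MaP -/-, 287 genes were called by edgeR, 905 by DESeq2, 491 without a low-count filter, 105 with at least 10 counts in every tumor, 1760 without a fold threshold, 1051 at a log2 fold change of 1, and 228 to 345 with a tumor left out. The 3 called members became 1 in a fit of all 18 tumors, 0 without JM663-T2 and JM1126 (an alternative chosen after seeing the data) and 0 to 3 with a tumor left out. Without JM663-T2, Mmp12 was 0.75 and Tmem123 0.14, and with any tumor left out they ran from -1.50 to 0.75 and from -1.20 to 0.14. For MaP R245W/- against MaP -/-, the count of 0 became 206 by DESeq2, 2 in a fit of all 18 and 0 to 3 with a tumor left out. Without JM663-T2 and JM1126, Mmp10 was -2.35 and Dcun1d5 0.018. With a tumor left out, log2 fold changes that turned ran from -3.05 to 0.63 (Mmp3), -6.04 to 4.08 (Mmp10), -1.08 to 2.30 (Mmp12), -5.49 to 2.62 (Mmp13), -1.27 to 0.062 (Tmem123) and -2.29 to 0.23 (Dcun1d5). For MaP R172H/- against MaP R245W/-, 526 genes became 1164 by DESeq2, 104 with at least 10 counts, 2114 without a fold threshold, 1392 at a log2 fold change of 1 and 315 in a fit of those groups alone. Members called were 0, but 1 (Mmp10) with tumors of a mouse summed, 1 in the fit of those groups alone and 0 to 1 with a tumor left out. Without JM663-T2 and JM1126, Birc3 was 0.13, Mmp3 0.32, Mmp10 0.43, Mmp12 0.066 and Mmp13 1.08. With a tumor left out, the ranges were -0.22 to 0.0032 (Yap1), -0.31 to 0.13 (Birc3), -2.75 to 0.32 (Mmp3), -6.27 to 0.43 (Mmp10), -2.08 to 0.065 (Mmp12), -3.88 to 1.08 (Mmp13) and -0.036 to 0.21 (Tmem123). In the same order of comparisons, 164 of 192, 161 of 171 and 222 of 242 recomputed member fold changes kept direction and side of the threshold. The cause of these changes was not tested. No paired analysis between genotypes was possible because no mouse gave tumors of different genotypes, and replicate numbers only follow the order of the samples.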
